A study of Mus musculus with 7 samples.

Results

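The integrated stress response and Tribbles genes were examined in brown fat, the heat-producing fat tissue, of newborn mice with and without glycerol kinase. The set holds 10 genes (Atf3, Atf4, Atf5, Ddit3, Trib1, Trib2, Trib3, Nupr1, Chac1 and Fgf21), chosen by name, out of 18193 genes named on the array, and takes in all 18 of their probe sets among 45037 that are not array controls. The KO group was made up of 4 brown fat samples, labelled as from male C57BL/6J mice aged 3 days with a knockout of Gyk. KO replicate 1 has no genotype label apart from its title, which names it KO. Gyk is the gene of glycerol kinase, which phosphorylates glycerol so that it can enter lipid synthesis or glycolysis. The WT group was made up of 3 samples with the same labels of strain, sex, age and tissue. The labels do not describe how the knockout was made or whether each sample came from a separate animal, and the p-values below therefore cover the variation among these samples, which may be technical. Each sample had been hybridised to its own array, which gives 1 linear signal per probe set.

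The integrated stress response begins when a kinase phosphorylates the initiation factor eIF2, which slows general protein synthesis while the transcription factor ATF4 is translated more. ATF4 then acts with partners such as CHOP, the product of Ddit3, on genes of amino acid supply, redox balance and cell fate, and Trib3, Nupr1, Chac1 and Fgf21 are among its known targets. The Tribbles proteins TRIB1, TRIB2 and TRIB3 are pseudokinases: TRIB1 and TRIB2 bring the ubiquitin ligase COP1 to C/EBPα, and TRIB3 binds ATF4, CHOP and the kinase AKT. In brown fat, ATF4 and FGF21 are known for responses to mitochondrial and nutrient stress.

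The arrays were alike in scale, with medians of 131.5 to 154 signal units, and precision is limited by there being only 7 of them. The level of Gyk is not analysed here, and genotypes rest on the labels. The array of KO replicate 2 stood apart from the other KO arrays. On the first principal component (35.3% of the variance) it scored 13.8, against -35.7 to -33.4 for the other KO arrays and 23.0 to 33.3 for the WT arrays, and its Xist signal was 2757, against 183 to 273 on every other array. Xist is transcribed from the inactive X chromosome of female cells, so this value goes against the male label of KO replicate 2, and its genotype could not be checked here. Results on the members are therefore also given without it. KO replicate 2 was singled out partly by its place near the WT arrays in these same data. Leaving it out can thus by itself enlarge the differences between the genotypes, and calls made without it are no independent support. The second principal component held 16.4% of the variance. On it, KO replicates 1 and 2 and WT replicate 1 scored -24.5 to -21.8, and the other arrays 12.5 to 23.6. This split follows the 2 sets in which the samples were deposited, called deposit sets 1 and 2 below. WT has only replicate 1 in deposit set 1, and the labels do not say what divides the sets. Of the 11 brown adipocyte markers tested, 0 differed between the genotypes (limma adjusted p under 0.05), and their summed signal was 147809 to 191986 in KO and 155115 to 177236 in WT. Neutrophil granule markers had sums of 6575 to 11406 in KO against 4555 to 7006 in WT, with all 8 estimates above 0 and 1 passing, Chil3. Of all genes tested, 1.83% passed. Fibroblast markers summed to 35987 to 58860 in KO and 56557 to 63638 in WT, with all 7 estimates below 0 and 0 passing, while without KO replicate 2 Lum and Fap fell 2.25-fold and 2.36-fold (adjusted p = 0.00543 and 0.00595). Endothelial markers summed to 6930 to 7498 in KO and 7591 to 9497 in WT, which do not overlap, with 4 of 5 estimates below 0 and 0 passing. The part of these cell types in the results below was not tested.

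Of the 18 probe sets, 14 had enough signal to be tested (mean log2 signal at or above the 40th percentile of all probe sets) and they covered 9 of the 10 genes. Nupr1 rose on both of its probe sets and Trib1 fell on 1 of 2 in KO brown fat. Trib3 averaged 2.06-fold and 2.05-fold the WT signal on its probe sets and Trib2 0.562-fold and 0.751-fold, but neither gene passed in this fit. Atf3, Atf4, Atf5, Ddit3 and Chac1 did not pass. These 3 changed probe sets of 14 compare with 1.59% of all 27022 tested probe sets (0.951% higher and 0.644% lower). The KO and WT arrays did not overlap for 6 of the 14, 4 higher and 2 lower, against 14.7% of all tested probe sets (7.48% higher and 7.25% lower). Without KO replicate 2, 6 of the 14 passed, 4 higher and 2 lower, against 7.35% of all. The median log2 difference of the 14 was 0.34, against 0.00 over all tested probe sets. The genes had been picked with earlier results of these data known, so these counts describe the set and do not test it. In whole tissue, fewer cells of a type and less RNA per cell cannot be told apart.

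**Figure D1:**
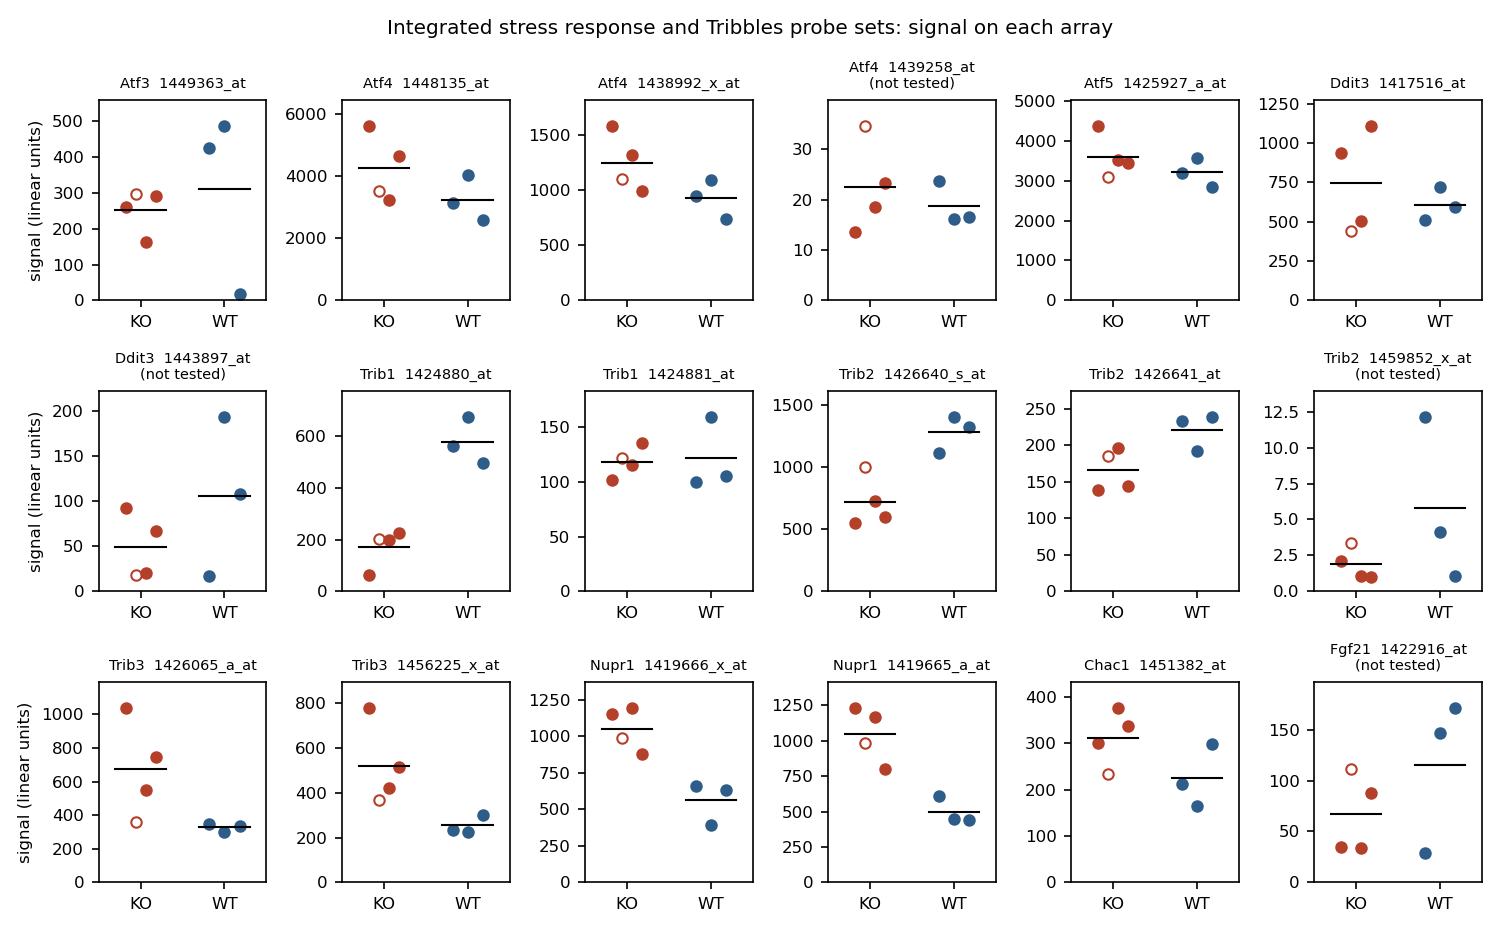
Signal (linear units, y axis from 0) of all 18 probe sets of the 10 genes on each array, with KO at the left and WT at the right of each panel; lines mark group means and the open circle is KO replicate 2. Nupr1, Trib3 and the brighter probe sets of Trib1 and Trib2 show KO and WT arrays that do not overlap, while the arrays of Atf3, Atf4, Atf5, Ddit3 and Chac1 overlap.

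Nupr1, a small chromatin-associated protein induced by many stresses and a target of ATF4, was the member gene that rose. Its first probe set read 1229, 984, 1170 and 799 in KO replicates 1 to 4, against 613, 447 and 439 in WT replicates 1, 3 and 4. The lowest KO array lay above the highest WT array. The log2 difference was 1.02 ± 0.18 (SE; adjusted p = 0.0277), a 2.02-fold rise. The other probe set, the brighter by mean log2 signal, read 1155, 989, 1191 and 876 in KO, against 659, 393 and 631 in WT, again without overlap. It rose 1.86-fold (log2 difference 0.89 ± 0.19, adjusted p = 0.0446). KO replicate 2 lay with the other KO arrays here: it stood 85.6% and 83.4% of the way between the WT mean and the mean of the other KO arrays. The calls were lost (adjusted p 0.0610 to 0.114 for the first probe set and 0.0852 to 0.138 for the brighter one) when KO replicate 1, 3 or 4 or any WT replicate was left out, although the log2 difference stayed between 0.67 and 1.16. They were also lost with no filter on low signal and with no mean-variance trend (adjusted p 0.0553 to 0.112). That of the brighter one was also lost with quantile normalization (0.0536), median scaling (0.0729) or deposit set 2 alone (0.0805).

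The promoters of the genes were searched for the element that dimers of ATF4 and C/EBP proteins bind, TGATGNAA, on both strands of the window of 250 bases before to 50 bases after each start site. RefSeq promoters (GRCm38.p6) were held for 9 of the 10 genes. The element was found in 5 of these 9 genes and in 3.97% of all 32851 promoters of that length. In 4 of the 5 it read TTGCATCA, the reverse complement of TGATGCAA, which is held by 0.895% of all promoters. These 4 windows are shown because they hold the same letters before the start site, 5′ to 3′ along the gene's own strand, with the element in capitals. The first lies at chr7:126625547-126625606 (minus strand), the second at chr2:119351023-119351082 (plus strand), the third at chr7:45615596-45615655 (minus strand) and the fourth at chr1:191183410-191183469 (minus strand).
Nupr1: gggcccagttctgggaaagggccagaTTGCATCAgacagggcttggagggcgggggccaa
Chac1: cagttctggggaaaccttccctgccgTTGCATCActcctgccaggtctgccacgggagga
Fgf21: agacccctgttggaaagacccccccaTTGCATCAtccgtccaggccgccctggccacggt
Atf3: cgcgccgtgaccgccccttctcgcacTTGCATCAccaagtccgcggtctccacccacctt

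The match begins 110 bases before the start site in Nupr1 and in Atf3, 139 before it in Fgf21 and 193 before it in Chac1. In Trib3 the element read TTACATCA and began at base 15 after the start. The windows of Atf4, Atf5, Ddit3 and Trib2 held no match to these letters. The element was shared by Nupr1, which rose, and by Atf3, Chac1 and Fgf21, which did not pass or were not tested. The other motifs were common: CCAAT was in 5 of the 9 genes and 37.4% of all promoters, and CCACG in 6 of the 9 and 32.8%. The shorter ATF/CREB site TGACGT was in 1, Atf3, against 7.51% of all, and the full site TGACGTCA in 0, against 1.79%.

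Trib1 was the member gene that fell. Its brighter probe set read 64.1, 202, 197 and 225 in KO replicates 1 to 4, against 561, 673 and 498 in WT replicates 1, 3 and 4. The highest KO array lay well below the lowest WT array, and KO replicate 1 was the lowest of all. The log2 difference was -1.67 ± 0.31 (adjusted p = 0.0332), a 3.19-fold fall. KO replicate 2 stood 90.4% of the way between the WT mean and the mean of the other KO arrays. The dimmer probe set read 102, 122, 115 and 136 in KO and 100.3, 159 and 105 in WT, with a log2 difference of -0.01 (95% interval -0.50 to 0.47). The probe sets of Trib1 thus disagree, and that interval leaves out the size of change seen with the brighter one. The dimmer one, however, lay only 0.32 log2 units above the filter on low signal. Fold changes of such dim probe sets are understated, but its KO mean was also 0.975-fold its WT mean before the offset (118.6 and 121.6 signal units). The brighter one was itself dim in KO, where KO replicate 1, at 64.1, lay under the filter cut of 88.9 signal units. Why the probe sets disagree was not tested, and whether Trib1 fell is not decided. Leaving out KO replicate 3 or 4 or any WT replicate ended the call of the brighter probe set (adjusted p 0.0756 to 0.133), with log2 differences between -1.82 and -1.34 over all 7 such fits, and so did no filter (adjusted p = 0.0722) and no mean-variance trend (0.0974).

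Trib2, which shares with Trib1 the ability to direct COP1 to C/EBPα, was also at a lower level in KO but missed the threshold. Its brightest probe set read 552, 1002, 726 and 598 in KO, against 1118, 1401 and 1324 in WT. The groups did not overlap, and KO replicate 2 lay closest to WT, at 42.6% of the way. The log2 difference was -0.84 ± 0.19 (adjusted p = 0.0574). Without KO replicate 2 it passed (adjusted p = 0.00384), a 2.003-fold fall. It also passed with all arrays under a stricter filter (0.0437) or with 1 probe set per gene (0.0454). The same held in deposit set 2 alone (0.0211). In 14 of 19 alternative fits, however, it did not pass, with adjusted p up to 0.191. A dimmer probe set read 139, 186, 197 and 145 in KO and 234, 193 and 239 in WT, which overlap, with a log2 difference of -0.36 ± 0.19 (adjusted p = 0.373). The third stayed between 1 and 12.1 signal units on all arrays and was not tested. By its suffix the brightest Trib2 probe set, like the brighter one of Nupr1 and the dimmer one of Trib3, has probes that can match more than 1 transcript, so it may read more than its gene.

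Trib3, the Tribbles gene that ATF4 and CHOP induce, ran in the opposite direction to Trib1 and Trib2. Its brighter probe set read 1036, 361, 549 and 746 in KO, against 349, 297 and 335 in WT. KO replicate 2 lay just above the highest WT array and stood 7.56% of the way to the other KO arrays. This gave a log2 difference of 0.88 ± 0.28 (adjusted p = 0.141). Its dimmer probe set read 776, 368, 420 and 513 in KO and 236, 223 and 302 in WT, with a log2 difference of 0.91 ± 0.23 (adjusted p = 0.0794). Neither passed with all 7 arrays. Both passed without KO replicate 2, with rises of 2.19-fold (adjusted p = 0.0109) and 2.06-fold (adjusted p = 0.0203). In 17 of 19 and 16 of 18 alternative fits they did not pass, with adjusted p up to 0.317 and 0.228. The placing of KO replicate 2 thus differed among the 4 genes: with the other KO arrays for Nupr1 and Trib1 and nearer to WT for Trib2 and Trib3.

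**Figure D2:**
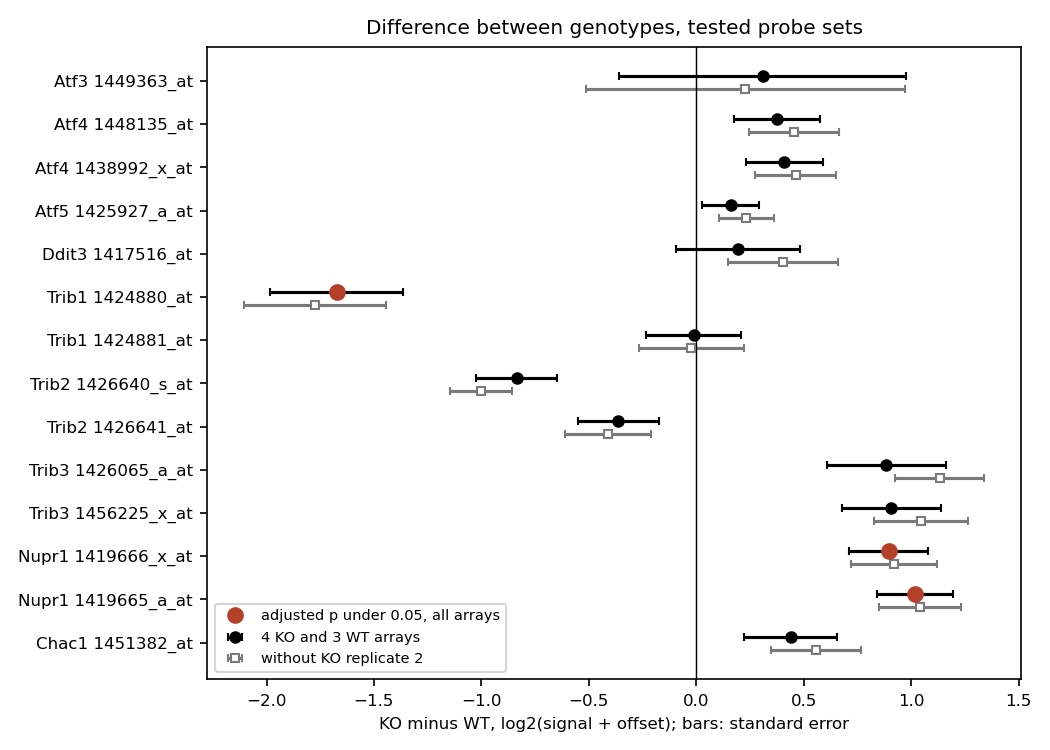
Log2 difference, KO minus WT, of the 14 tested probe sets (x axis; bars are standard errors), with all 7 arrays (circles) and without KO replicate 2 (open squares); red marks an adjusted p under 0.05 with all arrays. Nupr1 and the brighter probe set of Trib1 are red, and Trib2 and Trib3 lie farther from 0 once KO replicate 2 is left out.

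The transcription factors at the centre of the response were measured at overlapping levels in the genotypes. The brightest probe set of Atf4 read 5613, 3515, 3241 and 4656 in KO and 3131, 4043 and 2581 in WT. Its log2 difference was 0.37 (95% interval -0.07 to 0.82, adjusted p = 0.392), and that of its second probe set was 0.41 (0.01 to 0.81, adjusted p = 0.284). ATF4 is controlled largely in translation, which an array of transcripts does not measure. Atf5, a relative that is translated in a similar way and serves mitochondrial stress, read 4359, 3079, 3529 and 3447 in KO and 3203, 3577 and 2847 in WT (log2 difference 0.16, 95% interval -0.13 to 0.45).

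Ddit3, which encodes CHOP, split the KO arrays. Its brighter probe set read 936, 439, 506 and 1107 in KO and 508, 724 and 596 in WT. KO replicates 1 and 4 lay above all WT arrays and KO replicates 2 and 3 below all of them, and the log2 difference was 0.19 ± 0.29 (adjusted p = 0.805). The order of the KO arrays for Ddit3 was not that for Nupr1, where KO replicate 4 was the lowest. Atf3, a stress-induced repressor and immediate early gene, read 260, 298, 164 and 291 in KO and 427, 486 and 17.1 in WT. The single low value of WT replicate 4 set the sign: the log2 difference was 0.31 ± 0.67 with all arrays and -0.81 ± 0.24 (adjusted p = 0.212) without WT replicate 4.

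Chac1, an enzyme that breaks down glutathione and a target of ATF4, read 300, 234, 375 and 337 in KO and 211, 164 and 298 in WT. KO replicates 1, 3 and 4 were above every WT array, though replicate 1 only narrowly, and KO replicate 2 fell among them. The log2 difference was 0.44 (95% interval -0.04 to 0.92, adjusted p = 0.347). Fgf21, a hormone secreted by liver and by stressed fat, read 34.9, 111, 34.2 and 87.6 in KO and 29.0, 147 and 171 in WT. Its mean log2 signal was 0.17 below the filter, and it was not tested. The highest and the lowest values were both in WT. Albumin and other liver markers varied from array to array in a partly similar order, with summed signals of 2805, 18777, 1681 and 17052 in KO replicates 1 to 4 and 10840, 2855 and 34513 in WT replicates 1, 3 and 4; their part in the Fgf21 values was not tested. The remaining probe sets below the filter were the dimmest of Atf4 (13.5 to 34.5 in KO and 16.1 to 23.7 in WT) and the dimmer of Ddit3 (18.5 to 92.4 in KO and 16.8 to 193 in WT).

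Genes that act around these members were each represented by the probe set with the highest mean log2 signal. Of 166 further genes tested, 4 were higher and 1 lower in KO, or 3.01%, against 1.83% of all 13102 genes (1.12% higher and 0.710% lower). Their median log2 difference was 0.03, against -0.01 over all genes. The 5 genes were Slc38a2, Cebpd, Vldlr, Cop1 and Pdia3. With no mean-variance trend all 5 missed the threshold (adjusted p 0.0762 to 0.131), as did Vldlr and Cop1 with no filter (0.0723 and 0.0695) and with median scaling (0.0689 and 0.0587).

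Among 34 known ATF4 target enzymes and transporters, 2 rose and 0 fell, against 1.12% and 0.710% of all genes. Their median log2 difference was 0.05. Before adjustment 8 were higher and 2 lower at a p under 0.05 (limma), against 8.57% and 9.59% of all genes. Slc38a2, the amino acid transporter SNAT2 whose gene is a classical target of amino acid deprivation, rose 2.66-fold. It read 5554, 2754, 4150 and 4756 in KO, against 1456, 1670 and 1524 in WT, so that every KO array was well above WT and KO replicate 2 was the lowest of them. On the log2 scale it differed by 1.41 ± 0.20 (adjusted p = 0.0198), and a second probe set rose 2.69-fold (adjusted p = 0.0371) while the dimmest of its 3 did not pass. Vldlr, a lipoprotein receptor, read 5243, 5096, 5631 and 6399 in KO, against 3949, 3944 and 3617 in WT, a 1.45-fold rise (adjusted p = 0.0403) on 1 of its 6 probe sets. By its suffix, that probe set of Vldlr has probes that can match more than 1 transcript. Some targets that did not pass with all arrays still did not overlap between the genotypes, in both directions. All KO arrays lay above all WT arrays in 14.7% of the 34, against 8.33% of all genes. They lay below in 5.88%, against 8.37%. Pck2, the mitochondrial phosphoenolpyruvate carboxykinase, read 1048 to 1960 in KO and 659 to 868 in WT (log2 difference 0.78, adjusted p = 0.0746). Eif4ebp1, the translation inhibitor 4E-BP1, read 11715 to 14324 in KO and 7984 to 9860 in WT (0.52, adjusted p = 0.0521). On the lower side, Slc7a1 read 237 to 285 in KO and 348 to 372 in WT (-0.43, adjusted p = 0.166). Aldh18a1 read 300 to 423 in KO and 458 to 526 in WT (-0.38, adjusted p = 0.243). Enzymes of serine and asparagine synthesis stood near WT: log2 differences were -0.06 for Asns, 0.07 for Phgdh and -0.24 for Psat1, with adjusted p of 0.883, 0.858 and 0.469. The choice of Pck2, Eif4ebp1, Slc7a1, Aldh18a1, Asns, Phgdh and Psat1 followed a look at their values. Without KO replicate 2, 4 of the 34 rose and 0 fell, against 8.38% of all genes (3.39% higher and 4.99% lower). The call of Slc38a2 was lost without KO replicate 3 or 4 or any WT replicate (adjusted p 0.0566 to 0.0834), and that of Vldlr without any array other than KO replicate 2 (adjusted p 0.0809 to 0.170).

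Of 15 genes of the eIF2 kinases, their phosphatases and the exchange factor eIF2B, 0 passed with all arrays (limma), and before adjustment 3 were higher and 1 lower at a p under 0.05. Of all genes, 8.57% were higher and 9.59% lower before adjustment. The 4 kinase genes Eif2ak1, Eif2ak2, Eif2ak3 and Eif2ak4 had log2 differences of 0.05, -0.31, -0.13 and -0.11. Ppp1r15a, the inducible subunit GADD34 that directs the phosphatase to eIF2, read 1134, 619, 826 and 977 in KO and 595, 666 and 457 in WT (log2 difference 0.59 ± 0.20, adjusted p = 0.170). Ppp1r15b, its constitutive counterpart, read 4767, 3555, 4170 and 4343 in KO, all above the 3145, 3510 and 2852 in WT (0.40 ± 0.12, adjusted p = 0.133). Without KO replicate 2 both rose (adjusted p = 0.0274 and 0.0291), and Oma1, the mitochondrial protease that can start the response, fell (log2 difference -0.71, adjusted p = 0.0181). With all arrays Oma1 was at -0.51 (adjusted p = 0.258), and KO replicate 2, at 770, lay within the WT range of 657 to 796. Gcn1, an activator of the kinase GCN2, stood at a log2 difference of 0.40 (adjusted p = 0.257).

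Among 13 partners and regulators of ATF4, Cebpd rose and 0 fell (median 0.02). Of all genes, 1.12% rose and 0.710% fell. Cebpd, a C/EBP factor that is also a glucocorticoid target, read 2269, 1274, 1217 and 1862 in KO, against 619, 662 and 581 in WT. KO exceeded WT by 1.33 ± 0.20 on the log2 scale (adjusted p = 0.0217), and its second probe set did not pass (0.79, adjusted p = 0.140). Without KO replicate 3 or 4 or any WT replicate the adjusted p was 0.0505 to 0.0921. Among 12 genes of Tribbles partners, 1 rose and 0 fell, beside the same shares of all genes. The 1 that rose was Cop1, the ubiquitin ligase that TRIB1 and TRIB2 recruit, at 1.49-fold. It read 3913, 3379, 4082 and 4450 in KO, against 2517, 2589 and 2796 in WT, with no overlap (log2 difference 0.58 ± 0.11, adjusted p = 0.0391). Cop1 thus rose while the brighter probe set of Trib1 fell. The call of Cop1 was lost when any array other than KO replicate 2 was left out (adjusted p 0.0906 to 0.145).

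The endoplasmic reticulum branch of the unfolded protein response, which shares the kinase gene Eif2ak3 with the integrated stress response, had a median log2 difference of -0.20 over 27 genes. Of these, 70.4% had an estimate below 0, against 51.5% of all genes. Of the 27, 1 passed lower and 0 higher, against 0.710% and 1.12% of all genes. Pdia3, a disulfide isomerase that folds glycoproteins, fell 1.65-fold on its brightest probe set. It read 2558, 3359, 2798 and 2862 in KO, against 4630, 4797 and 4858 in WT (log2 difference -0.72 ± 0.11, adjusted p = 0.0217). Calr, the chaperone calreticulin that works with it, read 8869, 9672, 9050 and 8965 in KO and 12118, 11727 and 12002 in WT, without overlap, at a log2 difference of -0.39 ± 0.09 (adjusted p = 0.0592). P4hb and Ssr1 had log2 differences of -0.34 and -0.37, and the master chaperone Hspa5 (BiP) one of -0.35 with adjusted p = 0.230. Atf6, a sensor of the same stress, stood at 0.42 (adjusted p = 0.129). In 18.5% of the 27 genes all KO arrays lay below all WT arrays, against 8.37% of all genes, and in 7.41% all lay above, against 8.33%. Without KO replicate 2, 5 of the 27 fell (Pdia3, Calr, P4hb, Ssr1 and Hsp90b1) and 0 rose, against 4.99% and 3.39% of all genes. Calr, P4hb, Ssr1, Hspa5, Hsp90b1 and Atf6 were named after their values were seen. Fibroblast markers were also lower by sum on 3 of the 4 KO arrays, and 2 of the 7 fell in the fit without KO replicate 2; their part here was not tested. The call of Pdia3 was lost without any array other than KO replicate 2 (adjusted p 0.0598 to 0.0977).

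**Figure D3:**
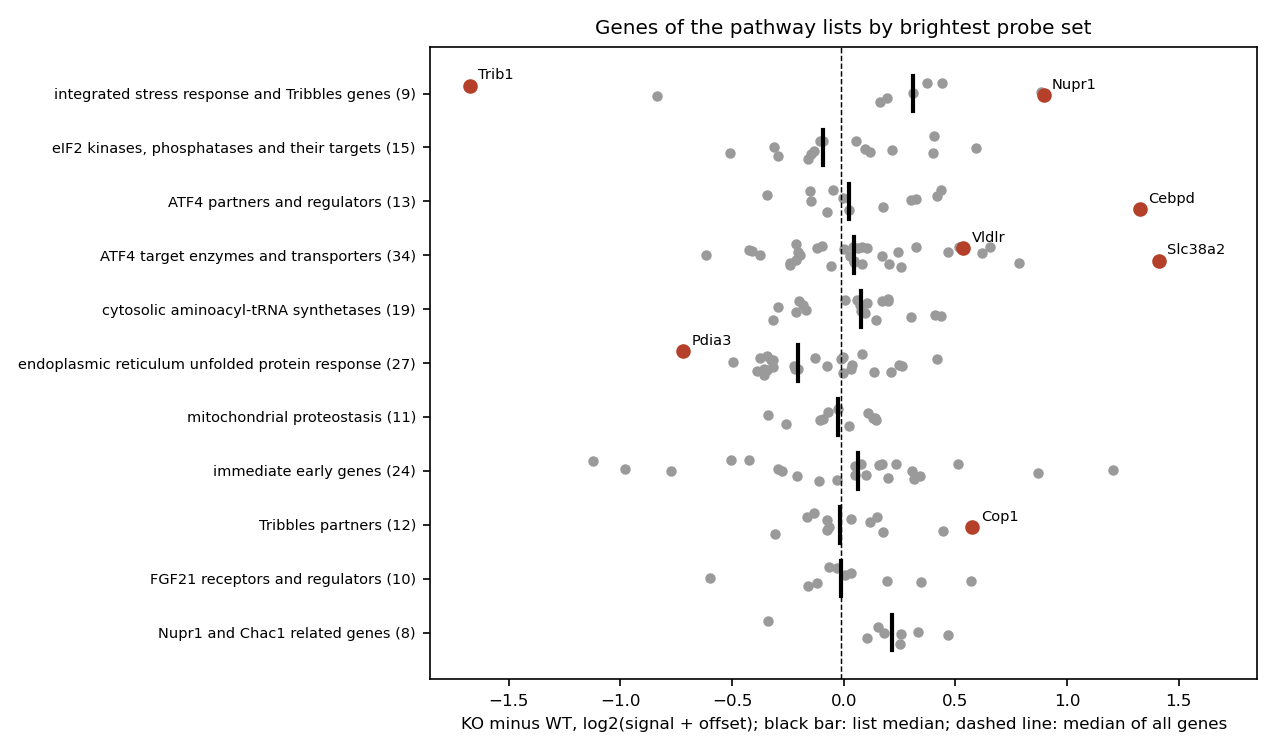
Log2 difference, KO minus WT, of each gene in the lists (x axis), 1 point per gene by its brightest probe set, with the number tested in parentheses; red points passed (adjusted p under 0.05), black bars are list medians and the dashed line is the median of all genes. Trib1 and Nupr1 lie at opposite ends of the first row, Slc38a2 and Cebpd at the right of theirs, and the median of the unfolded protein response genes lies left of the dashed line.

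Of 24 immediate early genes, the family of rapid responders to which Atf3 and Trib1 can belong, 0 passed with all arrays, while before adjustment 4 were higher and 5 lower (limma), against 8.57% and 9.59% of all genes. Zfp36, which destabilises inflammatory messages, read 1467 to 2459 in KO and 910 to 1151 in WT (log2 difference 0.87, adjusted p = 0.0524), and Myc read 564 to 696 in KO and 436 to 443 in WT (0.51, adjusted p = 0.0746). Jun read 1232 to 2042 in KO and 2213 to 3412 in WT (-0.77, adjusted p = 0.0653), and Egr1, named after its values were seen, was at -0.98 (adjusted p = 0.0875). Of the 24, 4 rose and 2 fell without KO replicate 2, against 3.39% and 4.99% of all genes.

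In the other lists 0 genes passed with all arrays and also 0 without KO replicate 2 (limma). Their counts before adjustment stand beside 8.57% of all genes higher and 9.59% lower. The 19 aminoacyl-tRNA synthetases tested, many of them ATF4 targets, had a median of 0.08, with 3 higher and 1 lower before adjustment. Mars1 was at 0.41 (adjusted p = 0.0799), Qars at 0.44 and Farsb at -0.32. The 11 genes of mitochondrial proteostasis had a median of -0.02 and 1 lower before adjustment, Dnaja3 (-0.34), while Yme1l1 was at -0.26 and Lonp1 at 0.14. Of 10 receptors and regulators of FGF21, 1 was higher before adjustment, Fgfr2 (0.57, adjusted p = 0.228), and Ppara and Fgfr4 were at 0.35 and -0.16. Among 8 genes related to Nupr1 and Chac1, 2 were higher before adjustment, Chac2 (0.47) and Ep300 (0.33), and Ggct was at -0.34.

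**Figure D4:**
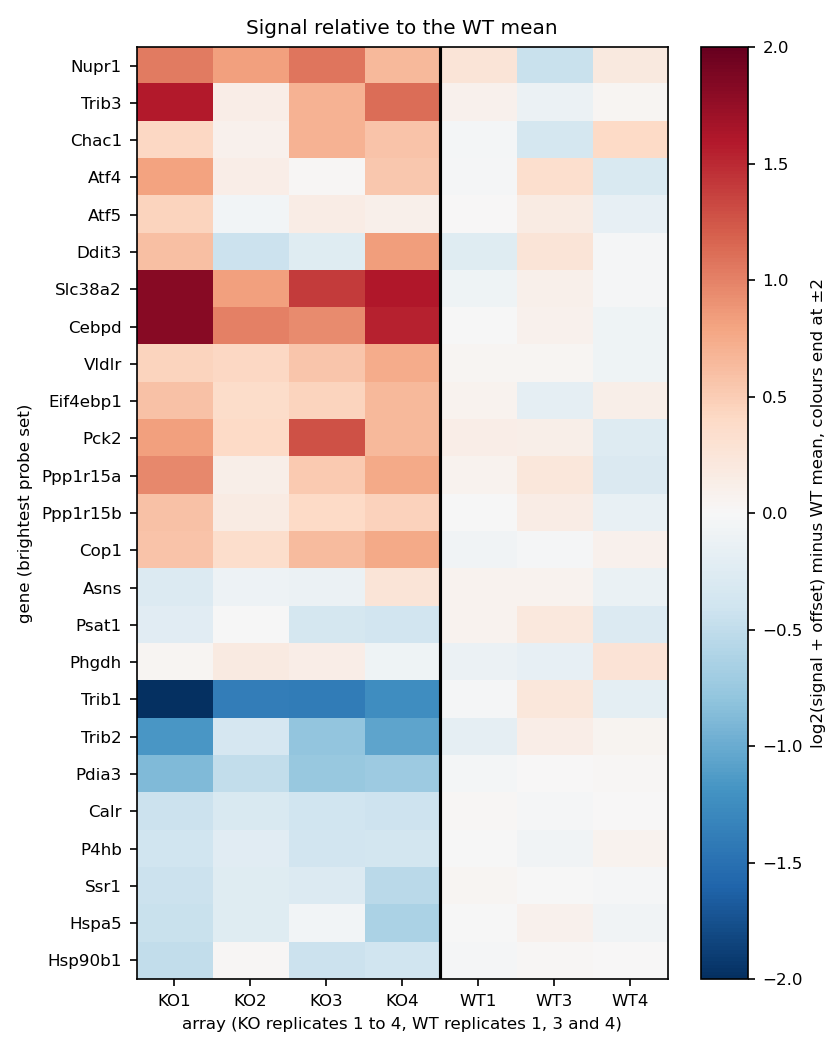
Signal of the genes named at the left on each array (columns, KO at the left and WT at the right) as log2(signal + offset) minus the WT mean of the gene. Slc38a2 and Cebpd are red on all 4 KO arrays, Trib1 and Pdia3 are blue on all 4, and Trib3 is close to the WT mean on KO replicate 2 (0.13) but at 0.70 to 1.58 on the other KO arrays.

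The genes with the pattern most like those of Trib1 and Nupr1 were found by Pearson's r of log2 values over the 7 arrays, which share the division into genotypes. For Trib1 they were Tusc3 (0.990), Pgap2 (0.985), Dnajc11 (0.983), Sfrp4 (0.980) and Myadm (0.980). Pgap2 read 658 to 1004 in KO and 1466 to 1641 in WT and passed (log2 difference -0.82, adjusted p = 0.0326), while the other 4 did not. For Nupr1 they were Taf1d (0.981), Purg (0.977), B830008H07Rik (0.975), Dusp28 (0.971) and Ltbp2 (0.966). Purg (0.85, adjusted p = 0.0238) and Ltbp2 (0.85, adjusted p = 0.0310) rose, and the other 3 did not pass.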

How the data were processed

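RNA of brown fat from 4 KO and 3 WT samples was measured on 1 Affymetrix array per sample. The deposited table gives 1 linear intensity per probe set, made by the authors with GCOS 1.2 per the submitters' processing notes. The labels name neither the algorithm behind the intensities nor the scaling. After trimming 2% at each end, every array averaged 500.003. Of 45101 probe sets, 64 controls were left out; 34945 of the rest had 1 gene symbol in the platform annotation, 932 several and 9160 none.

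An offset of 30.6 (20th percentile of the table) was added before log2, so fold changes of dim probe sets are understated. Probe sets with a mean under the 40th percentile were left out and 27022 were tested two-sided in R 4.3.3 with limma 3.58.1 (a linear model and eBayes moderation with a mean trend), with Benjamini-Hochberg adjustment over all of them and a threshold of 0.05. The procedure was tested on simulated data. Intervals are 95% intervals of the fit. A list counts each gene by its brightest probe set. From each list, genes that passed were named, otherwise up to 3 with the smallest p; likeness names 5 genes. Members, lists and motifs were chosen with earlier results of these data known. Alternatives were other scalings, offsets, filters and variance models, a replicate block, the 2 sets in which samples were deposited, and leaving out each array.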

Additional observations from a re-analysis of the deposited data

Results flagged for a closer look

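Of 60 groups of KO arrays tested for a value far from the other 3, 3 had one, where chance gives about 1 in 20. Gcn1, an activator of the eIF2 kinase GCN2, read 361.3 on KO replicate 1, against 506.8 to 515.6 on the other KO arrays. Fgfr2, a receptor of fibroblast growth factors, read 1721.5 on KO replicate 1, against 869.8 to 943.1 on the other KO arrays. Hsp90b1, a chaperone of the endoplasmic reticulum, read 5393.1 on KO replicate 2, against 3754.4 to 4016.7 on the other KO arrays.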

How the results depend on the processing

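With all arrays 3 member probe sets, 5 further genes and 431 of all probe sets passed. In that order the counts were 0, 3 and 100 with no filter on low signal, 0, 0 and 6 with no mean-variance trend, and 6, 23 and 2183 with the replicate block, which drops KO replicate 2 from the comparison, since WT has no replicate of that number. Deviations of same-numbered KO and WT arrays correlated at 0.137, 0.0899 and 0.109, which does not establish a pairing. Each KO array of number 1, 3 or 4 correlated best with the WT array of its own number, a hint from the data and not the design. Array median scaling gave 3 further genes and 236 probe sets, and the stricter filter 9 further genes. Deposit set 2 alone gave 8 further genes and 726 probe sets, and 1 probe set per gene 8 further genes. Leaving out 1 array gave 0 to 6 member probe sets, 0 to 21 further genes and 7 to 1986 probe sets, the highest without KO replicate 2; the cause was not tested. Of the single probe sets under the alternatives, 925 results kept direction and side of the threshold, 54 passed newly, 63 no longer passed and 13 changed sign. No log2 difference that changed sign was past the threshold. Leaving out 1 array gave -0.807 to 0.911 for Atf3 (negative without WT replicate 4), -0.0224 to 0.403 for Ddit3 (negative without KO replicate 4), -0.112 to 0.156 for the dimmer Trib1 probe set, -0.163 to 0.0174 for Asns, -0.0169 to 0.205 for Phgdh, -0.00781 to 0.134 for Eif2ak1 and -0.207 to 0.0878 for Eif2ak4. The dimmer Trib1 probe set was also positive with median scaling (0.000716) and with the deposit set as a covariate (0.0199). Asns was at 0.109 and Phgdh at -0.0258 in deposit set 2 alone. Fgf21 and 3 dim member probe sets lay too near background to be tested.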
